A study of Mus musculus with 5 samples.

Results

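The genes described here encode proteins of neutrophil granules. There are 10 of them, with 4 genes of the primary granules (Mpo, Elane, Prtn3 and Ctsg) and 6 genes of granules formed later in maturation (Ltf, Camp, Ngp, Lcn2, Mmp8 and Mmp9). They were chosen by name, together with every PU.1 binding summit that lay inside the gene or within 100 kb of either end, and the summits within 10 kb were counted separately. This gave 29 different summits out of the 11111 in the deposited list, of which 10 lay within 10 kb of a granule gene. The data come from chromatin immunoprecipitation followed by sequencing with the PU.1 antibody T-21. The cells were AML-246, a mouse acute myeloid leukaemia on a C57BL/6 background that lacks p53 and carries a GFP-linked short hairpin RNA against PU.1, taken from the spleens of leukaemic recipients. In the PU.1 high group (3 libraries), the mice had received doxycycline for 2 days, which shuts the hairpin down so that endogenous PU.1 returns, and in the PU.1 low group (2 libraries) they were untreated. Both groups thus share the p53 loss, the hairpin construct and the same leukaemia, and the labels call the libraries of a group technical replicates.

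The authors deposited 1 list of summits for all 5 libraries. The peak names give the contrast as high versus low, and a listed summit is therefore taken as a gain of PU.1 in the PU.1 high group over the PU.1 low group. A gene with no summit may still have been bound to a like degree in both groups. Each summit has a score on a −log10 scale, which grows with the certainty of the call and with depth and is not a fold change. Scores in the whole list had a median of 8.56 and quartiles of 5.78 and 11.9. Without values for single libraries, the depth is unknown, replicate error could not be computed, and the groups could not be tested against each other. The list holds no expression values either, so the labelled cell type could not be set against marker genes. Positions are 1-based on mm10, and gene spans are those of RefSeq GRCm38.p6.

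Neutrophil granules are filled in sequence as the cell matures. Primary, or azurophil, granules are loaded at the promyelocyte stage with myeloperoxidase and with the serine proteases elastase, proteinase 3 and cathepsin G. Secondary and gelatinase granules are loaded later with lactoferrin, cathelicidin, lipocalin and metalloproteinases, under transcription factors of the C/EBP family. PU.1, encoded by Spi1, is an ETS-family factor that binds purine-rich DNA around a GGAA core and is needed for the myeloid lineage.

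The promoters of 3 primary genes and 1 later gene (Mmp8) carried the letters of a PU.1 motif, against 3.15% of coding-gene promoters. Those of 4 later genes, Mmp8 among them, and 0 primary genes carried the letters of a C/EBP motif, against 10.3%. These stretches are shown for that reason. RefSeq promoter windows of GRCm38.p6 run from 250 bases before the start site to 50 after it, and 9 of the 10 genes were matched. Mmp9 had no entry. The stretches are printed 5′ to 3′ on the strand of the gene. Capitals mark GAGGAAGT (PU.1) or TTGCNNAA (C/EBP), where N is any base, on either strand. In Ctsg, which holds neither, capitals mark the shorter GAGGAA.
Mpo, chr11:87793534-87793607, plus strand: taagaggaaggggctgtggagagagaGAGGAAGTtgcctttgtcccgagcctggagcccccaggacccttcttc
Elane, chr10:79886187-79886274, plus strand: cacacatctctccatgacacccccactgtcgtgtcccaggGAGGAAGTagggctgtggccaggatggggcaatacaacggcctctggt
Prtn3, chr10:79879532-79879619, plus strand: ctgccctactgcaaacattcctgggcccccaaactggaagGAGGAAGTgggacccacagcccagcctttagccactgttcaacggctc
Ctsg, chr14:56102745-56102824, minus strand: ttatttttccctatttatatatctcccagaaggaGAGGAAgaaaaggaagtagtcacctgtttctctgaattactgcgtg
Mmp8, chr9:7558179-7558428, plus strand: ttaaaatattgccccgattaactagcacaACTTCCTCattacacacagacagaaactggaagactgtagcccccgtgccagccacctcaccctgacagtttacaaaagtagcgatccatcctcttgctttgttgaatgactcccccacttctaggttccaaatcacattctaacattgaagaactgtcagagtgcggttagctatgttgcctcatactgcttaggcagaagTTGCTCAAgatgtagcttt
Ltf, chr9:111019177-111019264, plus strand: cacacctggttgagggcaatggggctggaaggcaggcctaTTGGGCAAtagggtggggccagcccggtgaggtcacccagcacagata
Ngp, chr9:110419630-110419717, plus strand: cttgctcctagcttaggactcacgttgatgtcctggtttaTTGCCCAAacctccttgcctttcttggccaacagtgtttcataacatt
Lcn2, chr2:32387908-32387989, minus strand: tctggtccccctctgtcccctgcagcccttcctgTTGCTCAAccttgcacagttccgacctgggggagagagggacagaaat

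Most later granule genes had a summit close by, and the primary genes had none within 10 kb but lay at ordinary distances from their nearest one. A summit within 10 kb of the gene span was present at 0 of the 4 primary genes and at 5 of the 6 later genes, together 5 of 10 (50%, 95% Wilson interval 23.7 to 76.3). Of all 21631 protein-coding genes (autosomes and chromosome X), 27.8% had one. Granule genes are short, and only 1 of the 10, Ltf, is longer than the median coding gene. Among the 12612 coding genes no longer than Ltf (23.5 kb), 19.9% had a summit within 10 kb. With so few genes the intervals are wide, reaching up to 49.0% for the primary genes and from 43.6 to 97.0% for the later genes. They cover counting error only and treat the genes as independent, although Elane and Prtn3 lie 3.14 kb apart and share their summits.

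**Figure D1:**
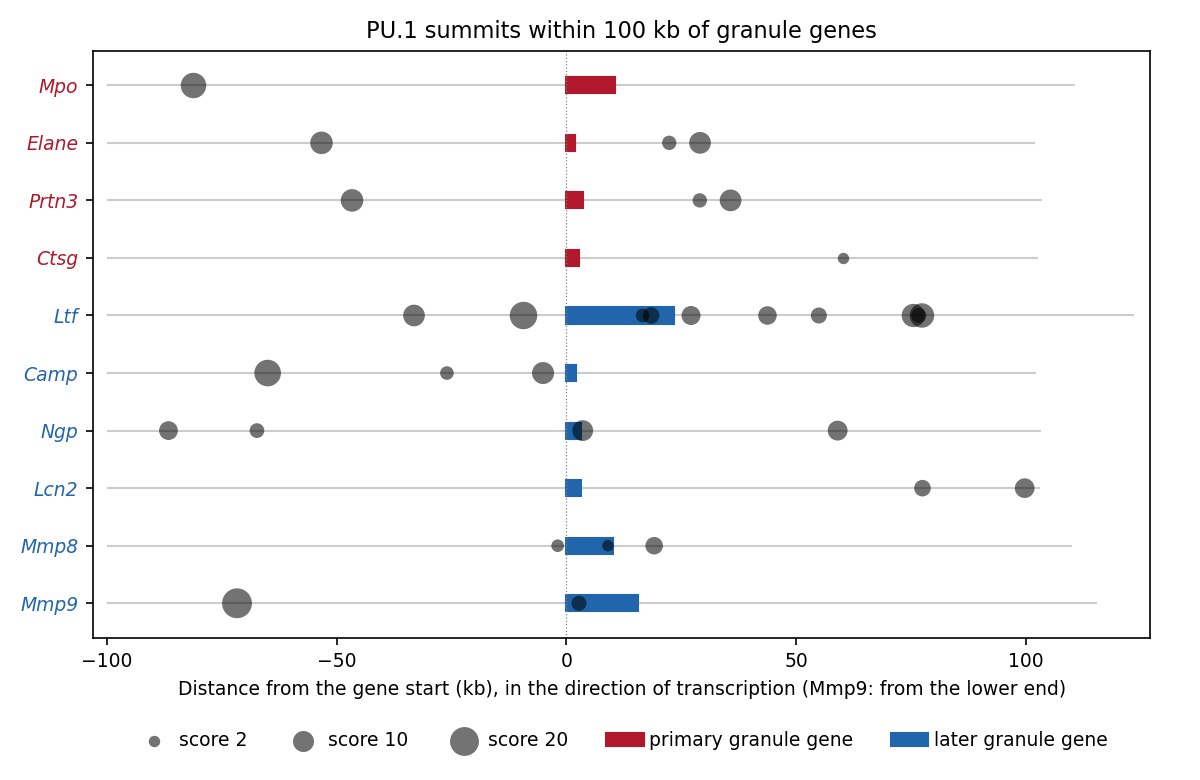
Summits within 100 kb of each granule gene, plotted by distance from the gene start in kb along the direction of transcription (for Mmp9, from the end with the lower coordinate). Bars are gene spans (red, primary; blue, later), circles are summits with area growing with the score, and the 4 primary genes have a gap around the gene where 5 of the 6 later genes have a summit.

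At Mpo (chromosome 11, 87793784 to 87804412), which encodes the peroxidase that makes hypochlorous acid from hydrogen peroxide, the whole 100 kb window held 1 summit. It lay at 87712536, 81.2 kb upstream of the start site and inside Rnf43, a ubiquitin ligase gene, with a score of 15.3 that exceeded 88.3% of all summits. No summit lay between it and Mpo. A distance of at least 81.2 kb was found for 40.0% of coding genes, so Mpo was not unusual in this. The other peroxidase genes of the locus, Lpo (lactoperoxidase) and Epx (eosinophil peroxidase), named after their values were seen, had their nearest summits 93.9 and 151 kb away.

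Elane (chromosome 10, 79886312 to 79888216) and Prtn3 (79879667 to 79883174), the genes of neutrophil elastase and proteinase 3, lie 3.14 kb apart and share the same 3 summits. The first stood at 79833029, 53.3 kb upstream of the Elane start site and 46.6 kb upstream of that of Prtn3, with a score of 11.7, and was 2.58 kb from Misp, a mitotic spindle gene. The next, at 79908676 with a score of 3.95, lay inside Med16, a Mediator subunit gene, 20.5 kb beyond the end of Elane. The last, at 79915377 with a score of 10.8, lay inside R3hdm4, 27.2 kb beyond the end of Elane. All 3 were thus inside or nearer to other genes, although the locus is dense, with 14 coding genes within 100 kb of Elane against a median of 4 for all coding genes.

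Ctsg (chromosome 14, 56099885 to 56102574), the cathepsin G gene, had 1 summit within 100 kb, at 56042334, 57.6 kb beyond its end. It lay inside Mcpt2, a mast cell protease gene of the same serine protease cluster, and its score of 1.98 exceeded only 1.43% of all summits. Ctsg therefore had neither a near nor a firm summit. The granzyme genes Gzme and Gzmd on its other side, named after their values were seen, had their nearest summits 75.3 and 87.2 kb away.

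Ltf (chromosome 9, 111019292 to 111042766), the gene of the iron-binding protein lactoferrin, stood out among the 10 by number. It had 10 summits within 100 kb, a number reached by 0.601% of coding genes, and 4 within 10 kb, reached by 1.88%. The highest-scoring, 18.0, lay at 111009953, 9.34 kb upstream of the start site, and exceeded 94.0% of all summits. It is the strongest call within 10 kb of any of the 10 genes.

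A pair of weaker Ltf summits, with scores of 3.41 and 5.78, lay inside the gene at 111035856 and 111037713, and one of 7.93 lay 3.63 kb beyond its end at 111046395. The other 6 were nearer to other genes. On the upstream side a summit of score 10.7 lay inside Rtp3, 33.2 kb from the Ltf start site. On the downstream side, the summits at 20.3 and 31.4 kb from the gene (scores 7.48 and 5.26) were nearest to Ccrl2, a chemokine-binding receptor gene. Beyond them a tight group of 3 at 52.0, 53.2 and 53.9 kb (scores 12.5, 4.62 and 14.0), with gaps of 1.19 and 0.684 kb, was nearest to Lrrfip2. Ltf summits thus spanned both flanks. Scores of at least 10 lay 9.34 and 33.2 kb upstream and 52.0 and 53.9 kb beyond the end. Those inside the gene and up to 31.4 kb beyond its end were 7.93 or lower.

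Camp (chromosome 9, 109847377 to 109849456), the gene of the antimicrobial peptide precursor cathelicidin, had 3 summits, all upstream of its start site. The nearest, at 109854542 with a score of 11.1, was 5.09 kb upstream, and no coding gene lay closer to it than Camp. A summit of score 3.41 at 109875458 lay 26.0 kb upstream and 0.06 kb from Cdc25a, the gene of a cell cycle phosphatase. The highest, 16.8, at 109914446, lay 65.0 kb upstream with Map4, a microtubule protein gene, as the nearest coding gene. Together with the Ltf summit of 18.0, the nearest Camp summit was 1 of only 2 within 10 kb of a granule gene that scored at least 10.

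Ngp (chromosome 9, 110419808 to 110423012) encodes neutrophilic granule protein, a mouse protein related to the cystatins and cathelicidins. Its nearest summit, at 110423351 with a score of 9.77, lay 0.339 kb beyond the end of the gene and 3.54 kb downstream of the start site. The other 3 stood far off, at Scap (scores 7.71 and 4.23, 86.6 and 67.3 kb upstream), the gene of a sterol-sensing chaperone, and inside Kif9 (8.78, 55.8 kb beyond the end), a kinesin gene. Camp, Ngp and Ltf lie in this order on chromosome 9, with gaps of 570 and 596 kb, so their 100 kb windows did not touch.

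Lcn2 (chromosome 2, 32384637 to 32387739), whose product lipocalin 2 binds bacterial siderophores, was the later gene without a near summit. Its 2 summits lay 74.4 and 96.6 kb beyond the end of the gene, inside Dnm1 (score 5.73) and Swi5 (score 8.56). In distance it ranked with the primary genes, between Ctsg at 57.6 kb and Mpo at 81.2 kb.

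Mmp8 (chromosome 9, 7558429 to 7568486), the neutrophil collagenase gene, had 3 summits within 10 kb and none further out to 100 kb. They lay 1.91 kb upstream of the start site (7556524, score 2.76), inside the gene 1.04 kb before its end (7567449, score 2.06) and 9.03 kb beyond its end inside Mmp27, another metalloproteinase gene (7577517, score 6.57). Having 3 summits within 10 kb was matched by 3.97% of coding genes, but all 3 scored below the median of the list, and the first pair exceeded only 3.31% and 1.67% of it. The long non-coding gene Gm31751 also covers the last pair of positions. Mmp8 thus had many close but weakly scored summits.

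Mmp9 (chromosome 2, 164940326 to 164955850), the gelatinase B gene, had a summit of score 4.56 inside the gene at 164943042, 2.72 kb from its lower end. The strongest summit of all 29, with a score of 21.5 that exceeded 97.3% of the list, lay 71.7 kb below this end at 164868663. Its nearest coding gene was Pcif1, 10.7 kb away, so that the high score did not belong to the site in Mmp9.

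**Figure D2:**
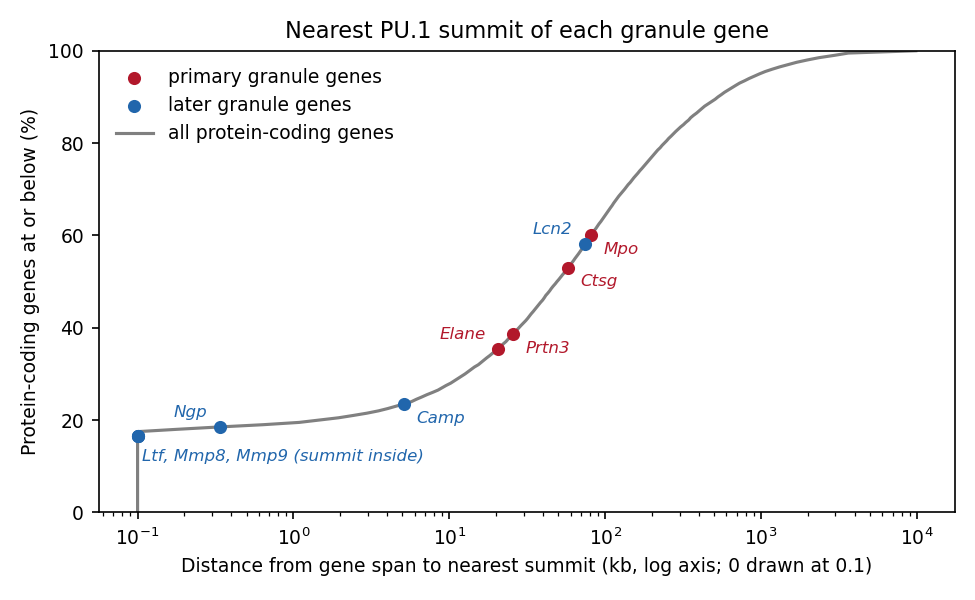
Distance from each granule gene to its nearest summit in kb (log axis, 0 drawn at 0.1), placed on the cumulative curve of all 21631 protein-coding genes. The later genes other than Lcn2 sit at 5.09 kb or less and the 4 primary genes between 20.5 and 81.2 kb, around the genome median of 49.1 kb.

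The median distance to the nearest summit was 41.5 kb for the primary genes and 0.17 kb for the later genes, against 49.1 kb for all coding genes and 64.0 kb for those no longer than Ltf. The primary genes therefore lay near the middle of the genome-wide distribution, and 5 of the 6 later genes among the nearest 23.5% of coding genes. Within 1 kb, 0 primary and 4 later genes had a summit (40.0% of the 10), against 19.4% of all coding genes. At 50 kb the primary genes had reached 2 of 4, Elane and Prtn3, with their shared summits, while the later genes stayed at 5 of 6. At 100 kb all 10 had one, against 64.3% of coding genes, a window so wide that most genes have a summit in it.

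**Figure D3:**
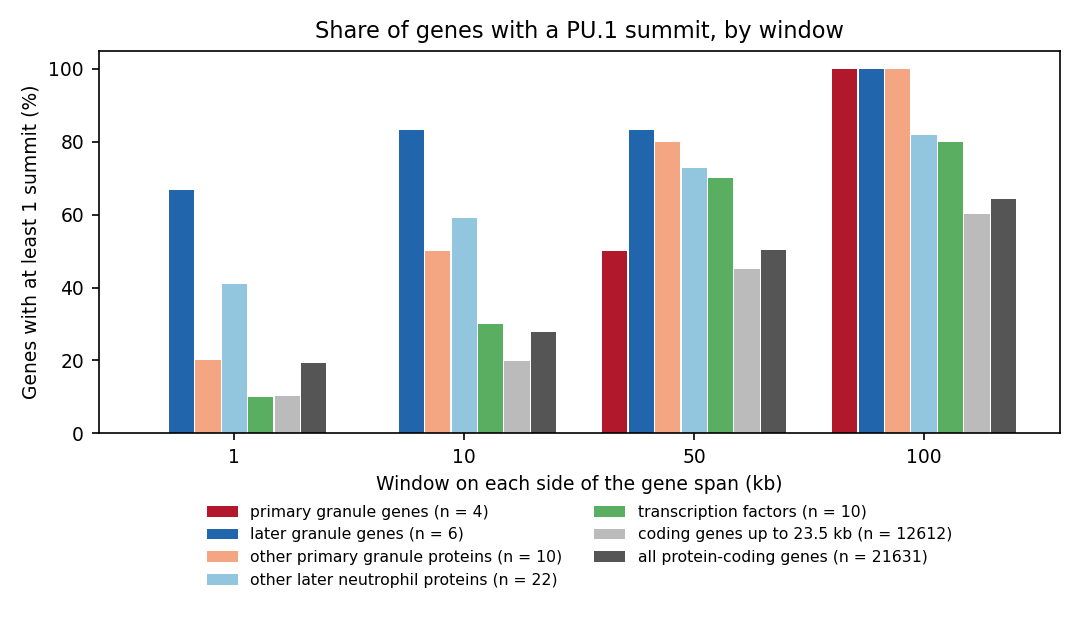
Percentage of genes with at least 1 summit inside the gene or within 1, 10, 50 or 100 kb of its ends, by gene group. The primary genes have no bar at 1 and 10 kb because 0 of 4 had a summit there, while 83.3% of the later genes had one within 10 kb.

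The 100 kb windows held 8.04 summits per Mb around the primary genes and 19.1 per Mb around the later genes, against 5.51 per Mb within 100 kb of any coding gene. Ltf supplied 10 of the 24 summits of the later genes, and without it their density was 13.5 per Mb. Density was above that of coding genes in general around both classes, but the primary value rests on 5 summits in 0.622 Mb. Of these, 3 lay in the gene-dense window shared by Elane and Prtn3, and Mpo and Ctsg had 1 each.

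The summits closest to the granule genes were not the highest-scoring ones. The 10 summits within 10 kb had a median score of 6.17, and 7 of them were below the median of the whole list. The 19 further out had a median of 8.56. Across all 29 the median was 7.71 (95% interval from order statistics 4.62 to 10.8), and 10 of them (34.5%) scored at least 10, against 37.4% of the whole list. The median score was 10.8 for the 5 summits around primary genes and 7.59 for the 24 around later genes. Their ranges overlapped, at 1.98 to 15.3 and 2.06 to 21.5. The interval around the granule gene median includes that of the whole list. It treats the summits as independent, although 10 of the 29 lie around Ltf, and is not a test of likeness. Among the summits next to the genes only those at Ltf and Camp reached 10.

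**Figure D4:**
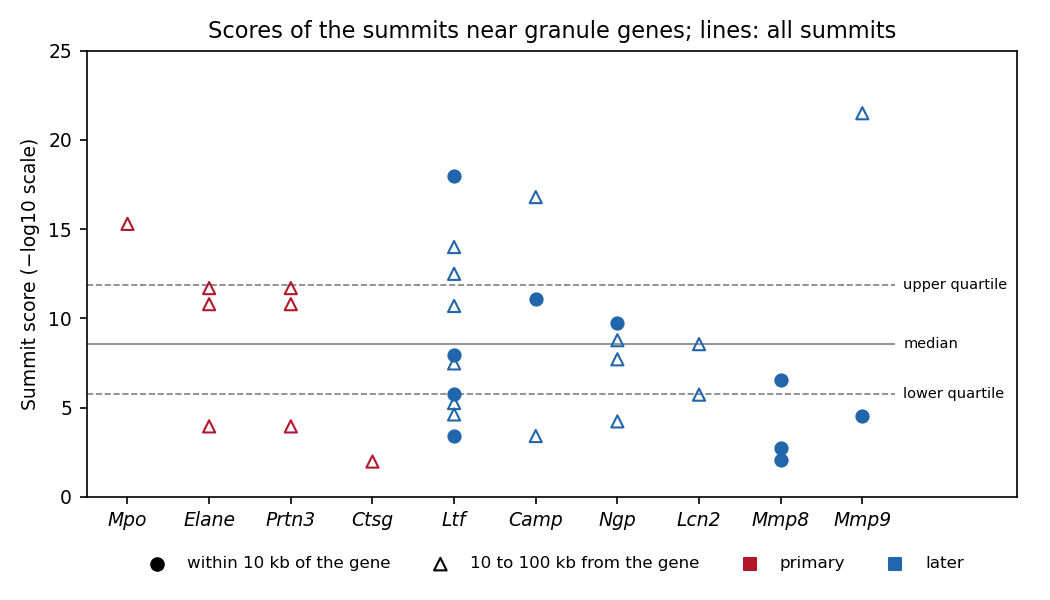
Scores (−log10 scale) of the summits around each granule gene, filled within 10 kb and open from 10 to 100 kb, with the quartiles of all 11111 summits as lines (summits shared by Elane and Prtn3 are drawn at both). Filled points above the median are those of 18.0 at Ltf, 11.1 at Camp and 9.77 at Ngp.

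A gene other than the granule gene was often nearer. For 9 of the 29 summits a granule gene was the nearest coding gene (4 for Ltf, 2 for Mmp8 and 1 each for Camp, Ngp and Mmp9). For the other 20 it was another gene, and 10 of these lay inside that gene. All 5 summits of the primary genes belonged to this second class. The like share for the windows of other coding genes was not computed. Each granule gene had 4 to 15 other coding genes within 100 kb, so these counts cannot be read as particular to granule genes. Distance does not show which gene a site acts on.

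Among the granule genes, the letters of the PU.1 motif stood mainly in primary promoters, whose genes had no near summit. Over all coding genes they went with more summits, as the shares over all windows show. GAGGAAGT was found on either strand in 3 of 4 primary windows (Mpo, Elane and Prtn3) and in 1 of 5 later windows (Mmp8), against 3.15% of 21045 windows of coding genes. It began 224, 85 and 95 bases before the start site in Mpo, Elane and Prtn3, always on the strand of the gene. The nearest summit to these 3 genes was nevertheless 20.5 kb away, beyond the end of Elane. Across all coding genes, 8.3% of windows with GAGGAAGT held a summit and 26.5% had one within 10 kb of the start site, against 2.48% and 17.4% of windows without it. Most windows with these letters thus had no listed summit, as at the primary genes.

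The C/EBP letters TTGCNNAA were found in 0 of 4 primary windows and in 4 of 5 later windows (Ltf, Ngp, Lcn2 and Mmp8), against 10.3% of all windows. Ngp held the letters at 2 places, and its second match, on the opposite strand, began 11 bases before the start site. Camp held neither these letters nor GAGGAA, and Lcn2 held the C/EBP letters without a near summit. The shorter GAGGAA, which lies within GAGGAAGT, was in 4 of 4 primary and 3 of 5 later windows (27.2% of all), and the core GGAA, which both contain, in all 9 (95.7% of all). The RUNX letters TGTGGT were in 1 of 4 primary windows (Ctsg) and 1 of 5 later windows (Ltf), against 14.7%. The AP-1 letters TGANTCA were in none of the 9 (7.04% of all), and the Myb letters AACNG in all 9 (79.0%). A match is a string of letters and not a binding site, and no match concerns this window alone.

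**Figure D5:**
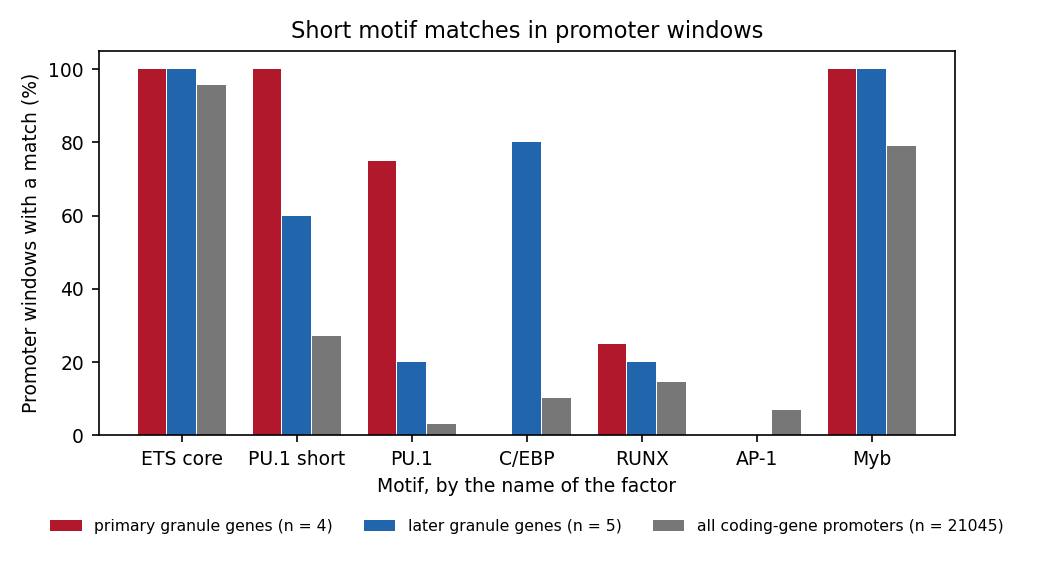
Percentage of promoter windows (250 bases before to 50 after the start site) with at least 1 match on either strand to each short motif, for the 4 primary genes, the 5 later genes with a window and all 21045 windows of coding genes. The PU.1 bar is highest for primary genes (3 of 4) and the C/EBP bar for later genes (4 of 5), and with so few genes each one moves a bar by a large step.

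Of the 29 summits, 3 fell inside a promoter window of the RefSeq table, and all 3 windows belonged to the neighbouring genes Scap, Cdc25a and Swi5. The stretches at Scap and Cdc25a are shown because they are bases under listed summits that lie before the start site, with the summit at base 51 and GGAA, or GAGGAA where it extends to that, in capitals on either strand.
Scap, chr9:110333185-110333285, plus strand: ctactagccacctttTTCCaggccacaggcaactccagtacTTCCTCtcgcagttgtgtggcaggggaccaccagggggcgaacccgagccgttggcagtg
Cdc25a, chr9:109875408-109875508, plus strand: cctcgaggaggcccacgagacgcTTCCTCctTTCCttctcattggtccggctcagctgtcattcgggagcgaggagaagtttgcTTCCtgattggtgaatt
The Scap stretch holds GAGGAAGT once, on the opposite strand, and that of Cdc25a holds GGAA 3 times without the full letters. The Scap summit had a score of 7.71 and lay 53 bases before a start site. The summit at Swi5 (score 8.56) lay 21 bases after a start site, in the transcribed part, and its stretch is not printed. It holds GGAA 2 times and GAGGAAGT 0 times.

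In a list of 42 further genes, 21 (50%, interval 35.5 to 64.5) had a summit within 10 kb, against the 27.8% of all coding genes. Among other proteins of primary granules it was 5 of 10. Ctsd, the gene of the lysosomal protease cathepsin D, had the highest score (24.0, 6.58 kb beyond its upper end), followed by Lyz2, the lysozyme gene (11.2, at 2.88 kb), and Gusb, the beta-glucuronidase gene (8.68, inside). Ctsc, whose product activates elastase, proteinase 3 and cathepsin G, also had a summit within 10 kb. The primary list as a whole thus included genes with near summits, unlike the 4 main primary genes.

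Among other proteins of later granules, the membrane and the cytosol of neutrophils, 13 of 22 (59.1%) had a summit within 10 kb. The highest scores were 13.1 at Pglyrp1, a peptidoglycan-binding protein gene, only 0.099 kb below its lower end, 13.1 inside Cybb, the gene of the large NADPH oxidase subunit, and 13.0 inside Anxa1, the annexin A1 gene. Cybb and Itgam, an integrin gene of the CD11b chain, are both longer than Ltf and had 4 summits each. S100a8 and S100a9, the calprotectin genes, had 3 and 1.

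Of 10 genes of transcription factors linked to granule genes, 3 had a summit within 10 kb (30.0%, interval 10.8 to 60.3), a share near the 27.8% of all coding genes. The 3 were Runx1 (12.5, inside), Spi1 (8.31, 1.4 kb below its lower end) and Gfi1 (2.72, 8.12 kb below its lower end), a transcriptional repressor gene. None of the C/EBP genes in the list, all shorter than Ltf, had a summit within 10 kb. They are too few to be told apart from the 19.9% of coding genes no longer than Ltf that had one. Their nearest summits lay 11.3 kb from Cebpb, 20.3 kb from Cebpa, 23.4 kb from Cebpe, which drives the later granule programme, and 184 kb from Cebpd, all of these named after their values were seen.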

How the data were processed

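PU.1 chromatin immunoprecipitation was sequenced in 5 libraries (3 PU.1 high, 2 PU.1 low). Tools named in the submitters' processing notes are CASAVA 1.8.2 and MACS2, with build mm10. Not given in the sources used here are the MACS2 settings, the aligner and how libraries were combined. The deposited score of each summit is on a −log10 scale, and the authors do not say if a p-value or q-value underlies it. Everything else was computed here from the 11111 positions and scores with Python 3.11.15, pandas 2.3.3, numpy 2.4.6 and scipy 1.17.1.

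Summits were assigned to genes by distance to RefSeq GRCm38.p6 spans, whose chromosome coordinates are those of mm10. A summit shared by neighbours was counted once. The strand came from the RefSeq promoter table, and 250 bases before to 50 after each start site were searched. Counting by window was tested on simulated summits. The members, gene lists and motifs were chosen with earlier results of these data known, and no test was run. All 10 members are described. Of the 42 other genes, the 3 with the highest-scoring near summit in each of the 3 groups are given with scores, and any with a summit within 10 kb may be named. Depth is unknown, since the file holds no reads. Alternatives were the window, a minimum score of 10, the start site, merging within 500 bp, the nearest gene and shorter genes as background.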

Additional observations from a re-analysis of the deposited data

How the results depend on the processing

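Of 27 alternative values, 10 stayed within 1.5 times the reported count or within the 95% interval of the reported share or median, and 17 moved. With a minimum score of 10, summits within 10 and 100 kb of granule genes numbered 2 and 10 instead of 10 and 29, granule genes with a near summit 2 instead of 5, other granule and regulator genes 7 instead of 21, the share of all coding genes was 12.7% instead of 27.8%, and the median score 13.2 instead of 7.71, as the limit itself removes low scores. With a window of 1 kb, 12 of the 42 other genes and 19.4% of all coding genes had a summit. With 50 kb it was 50.3% of all coding genes, and with 100 kb 10 granule genes, 36 other genes and 64.3%. Within 10 kb of the start site it was 17.6% of the 17274 coding genes with a promoter entry, and for genes no longer than Ltf 19.9%. A granule gene was the nearest coding gene of 9 of the 29 summits. Without Ltf, an alternative chosen after seeing the data, 6 and 19 summits remained within 10 and 100 kb. Under the minimum score, the start site, the 500 bp merging and the 1 kb window, 0 of 4 primary genes had a near summit. The later genes with one were, in the same order, 2 of 6, 4 of 5, 5 of 6 and 4 of 6. No paired analysis was possible because single libraries have no values, and none could be left out for the same reason. The number of genes, 4 and 6, limits every comparison of the classes.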
